A study of Mus musculus with 8 samples.

Results

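The 35 genes described here mark tissue macrophages, the phagocytes that live inside organs, and they were followed in whole mouse embryo stomach at E13.5. They were chosen by name as known macrophage genes, with earlier results of these data known, and the rule that picks their loci uses no measured value. All 35 were found among the 26747 loci of the deposited expression table, 34 under the listed name and Spi1 under its older symbol Sfpi1. Emr1 is itself the older symbol of Adgre1. At 2 loci the table joins a macrophage gene to a neighbour, Cd68 to Eif4a1 and Aif1 to Lst1, so that the value of each is that of the joined locus. Of the 35 loci, 33 held enough fragments to be tested, and Cd163 and Timd4 did not.

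RNA from stomach was sequenced in 4 libraries of wild type embryos and 4 of Nkx3.2Cre;R26-YAP5SA embryos, called YAP5SA below. Cre driven from Nkx3.2 acts in the mesenchyme of the stomach, where it switches on YAP5SA, a form of the coactivator YAP that escapes inhibition by the Hippo kinases. Both groups were of the same stage, and the labels give no strain, sex or littermate relation and do not say whether a library is 1 embryo or a pool. Libraries with Cre alone were not analysed here, so the effects of Cre and of YAP5SA cannot be told apart. The wild type libraries held 6328344 to 6919353 fragments and the YAP5SA libraries 7293556 to 8513116, so every YAP5SA library was the deeper. Barx1, a gene of stomach mesenchyme, was present in every library at 141 to 180.5 CPM (fragment counts scaled to library size) while Sox2, a gene of foregut epithelium, read 66.4 to 85.3 CPM in wild type and fell to 18.7 to 40.7 CPM in YAP5SA libraries (log2 fold change -1.36, adjusted p = 0.00082). The mouse Yap1 locus read 225 to 239.6 CPM in wild type and 204 to 233 CPM in YAP5SA libraries, and whether fragments of the transgene map to it was not given in the sources used here. All 10 genes taken as defining macrophages (Csf1r, Emr1, Fcgr1, C1qa, C1qb, C1qc, Cx3cr1, Mrc1, Ptprc and Spi1) were present in all 8 libraries, the lowest value being 5.84 CPM.

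Tissue macrophages of the embryo arise from blood-forming cells of the yolk sac and, later, the fetal liver, and not from the mesenchyme of the organ they settle in. They depend on the transcription factor PU.1 and on the receptor for the growth factors CSF1 and IL-34, and they clear dying cells, take up debris through scavenger receptors and release factors that act on vessels and matrix. In whole tissue their genes are read together with those of all other cells, and fewer or more cells of a type cannot be told apart from less or more RNA per cell.

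In YAP5SA stomachs 20 of the 33 tested macrophage loci rose and 0 fell, at an adjusted p under 0.05 in edgeR's quasi-likelihood test with Benjamini-Hochberg adjustment over 14574 loci. Over all tested loci the same rule called 9.06% higher and 9.85% lower. These shares also stand beside the counts of each group and list below. The median log2 fold change of the 33 loci was 0.71, with quartiles of 0.61 and 0.99, against -0.01 over all loci, and 31 of the 33 values were above 0. Of the 20, 6 changed by 2-fold or more, which 2.56% of all loci did in that direction: Spi1, the receptor genes Fcgr1, Emr1, Ptprc and Lyve1, and the protease gene Ctss. All YAP5SA libraries lay above all wild type libraries at 22 macrophage loci, as they did at 10.9% of all loci. These were the called loci other than Cd53, together with Hpgds, Itgam and Tyrobp, which were not called. The wild type libraries 1 to 4 gave a summed level of 1209, 1217, 1275 and 914 CPM over the 35 loci, where CPM is scaled by the TMM factors of edgeR. In the YAP5SA libraries 1 to 4 the sum was 2232, 1840.5, 1764 and 1556 CPM. The groups did not overlap, and the means of 1154 ± 162 and 1848 ± 283 CPM (SD, n = 4) differed 1.60-fold.

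Neither group was even within itself. YAP5SA library 1 was the highest of its group at 30 of the 35 loci, against 33.3% of all loci, and wild type library 4 was the lowest of its group at 32, against 28.0%. YAP5SA library 4 was the lowest of its group at 21. Without YAP5SA library 1 the number of macrophage loci called higher was 17, beside 8.77% of all loci, and the summed level differed 1.49-fold. With all libraries thinned to the depth of the shallowest, 18 were called higher, beside 8.85% of all loci. With the replicate number as a block, 28 of the 33 loci were called higher, beside 9.91% of all loci. The block rests on a pairing inferred from these same data, which the labels do not give. The 28 loci were the 20 together with Fcgr2b, Fcgr3, Hpgds, Itgam, Itgb2, Maf, Stab1 and Tyrobp.

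Per length, the adaptor Tyrobp, the C1q chains, the chemokine Pf4 and the joined Aif1 locus were the highest members. In the authors' FPKM values, which are scaled by transcript length, wild type held Tyrobp at 48.0 ± 8.69, C1qc at 37.4 ± 5.22, Pf4 at 36.3 ± 6.12 and the locus of Aif1 and Lst1 at 35.5 ± 4.94 FPKM (SD, n = 4). C1qa and C1qb followed at 33.3 ± 3.17 and 33.1 ± 3.29 FPKM, and neighbours in this order from C1qc to C1qb differed by less than their SD. The same 6 loci were the highest in YAP5SA, from 52.4 ± 7.81 FPKM for C1qb to 65.1 ± 9.37 FPKM for Tyrobp. At the other end stood Cd163 at 0.135 ± 0.141, Timd4 at 0.456 ± 0.0862, Itgam at 1.29 ± 0.316 and Ptprc at 1.87 ± 0.425 FPKM in wild type. The members with a known exon length (31) had a median of 0.0944 fragments per exonic base, against 0.0768 over 12794 tested loci.

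**Figure D1:**
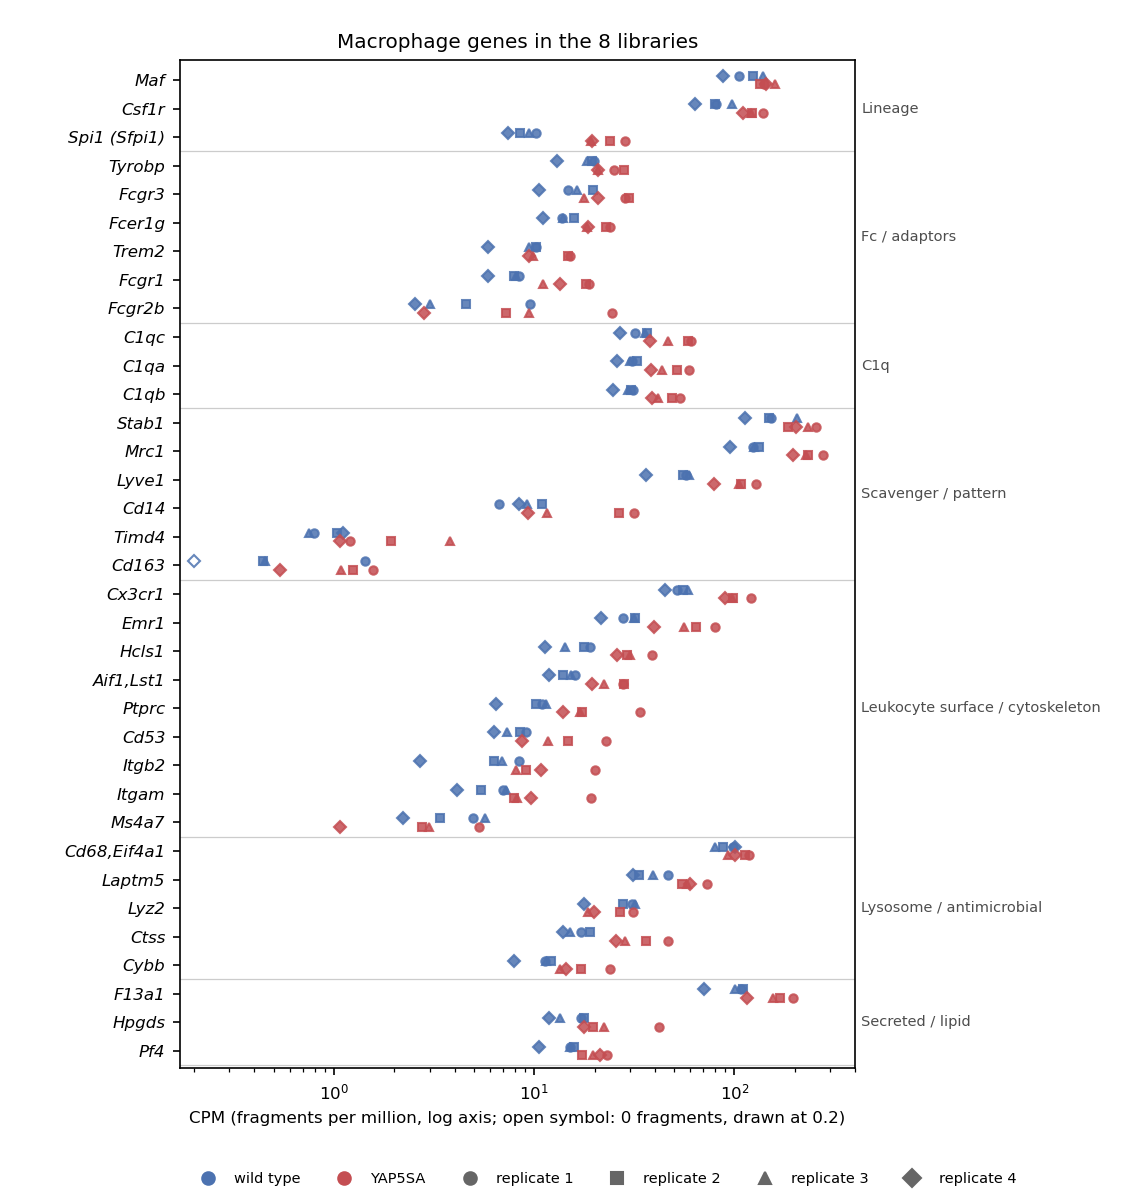
Level of each of the 35 macrophage loci in the 8 libraries, in CPM on a log axis, with wild type and YAP5SA in separate colours, 1 symbol per replicate number and the loci ordered by role. At 22 tested loci the YAP5SA symbols all lie to the right of the wild type symbols, and an open symbol at 0.2 stands for a library with 0 fragments.

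The lineage regulators come first, since they set macrophage identity. Spi1 (chr2:91096797-91115757 on mm10), which encodes PU.1, stood at 10.2, 8.53, 9.45 and 7.42 CPM in the wild type libraries 1 to 4. In the YAP5SA libraries 1 to 4 it stood at 28.3, 23.8, 19.2 and 19.5 CPM. Each YAP5SA library thus held more Spi1 than any wild type library. The log2 fold change was 1.35 ± 0.17 (standard error, SE; adjusted p = 0.00051), the largest of the 33. Csf1r encodes the receptor for CSF1 and IL-34, on whose signal macrophages depend. It measured 81.2, 80.1, 97.0 and 63.3 CPM in wild type and 138, 122, 121 and 110.0 CPM in YAP5SA libraries. Here too the groups lay apart, with a log2 fold change of 0.61 ± 0.11 (adjusted p = 0.0041). Exons of Csf1r overlap those of Hmgxb3 on the other strand, and the labels do not say whether counting used strand. The same limit holds for Stab1, which overlaps Nt5dc2, and for Maf, Fcgr2b, Cx3cr1 and F13a1, which each overlap an antisense gene, while Itgam overlaps a gene model, Gm49368, on its own strand. Maf (chr8:115682942-115707938) encodes a transcription factor of macrophages that other cells of the tissue also use. Its values were 106, 124, 138 and 88.0 CPM in wild type and 140.0, 134, 159.7 and 144 CPM in YAP5SA libraries, and wild type library 3 lay inside the YAP5SA range. Maf was not called, with a log2 fold change of 0.34 ± 0.12 and an adjusted p of 0.075, or 0.035 with the replicate block.

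PU.1, which Spi1 encodes, is known to bind promoters of many macrophage genes, so the RefSeq promoters of the members (GRCm38.p6, 250 bases before to 50 after the start site) were searched for the PU.1 letters GAGGAAGT on both strands. A promoter was found for 26 of the 35 members. The letters stood in 6 of the 26, as they did for 3.69% of 27025 genes, and the 6 windows that hold them are shown 5′ to 3′ on the strand of the gene, with the match in capitals (ACTTCCTC where it lies on the opposite strand).
Ctss: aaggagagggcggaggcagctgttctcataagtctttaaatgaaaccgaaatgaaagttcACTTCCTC
Cd53: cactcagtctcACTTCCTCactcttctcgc
C1qc: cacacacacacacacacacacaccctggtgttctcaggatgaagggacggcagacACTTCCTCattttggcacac
Pf4: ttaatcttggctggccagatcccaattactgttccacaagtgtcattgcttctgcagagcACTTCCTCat
Hpgds: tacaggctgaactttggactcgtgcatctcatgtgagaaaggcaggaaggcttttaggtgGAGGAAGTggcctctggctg
F13a1: cgagtccttttGAGGAAGTacccagaggca
The windows lie at chr3:95526724-95526791 (plus strand) for Ctss, chr3:106790125-106790154 (minus) for Cd53 and chr4:136893090-136893164 (minus) for C1qc. Those of the other genes are chr5:90772365-90772434 (plus) for Pf4, chr6:65144760-65144839 (minus) for Hpgds and chr13:37049181-37049210 (minus) for F13a1. Counted from the start site, the match begins at -2 in Ctss, 6 in Cd53, -195 in C1qc, -10 in Pf4, -49 in Hpgds and 14 in F13a1. Of these 6 genes, 5 were called higher and Hpgds was not, beside 20 of the 33 tested members. The calls of Cd53 and Pf4 were lost in several alternatives. Whether the letters bear on the rise was not tested. Spi1 itself is not among the 6. The RUNX letters TGTGGTT stood in the promoters of Cybb and Lyz2, beside 6.09% of all genes, and the MAF letters TGCTGAC in those of Fcgr3 and Timd4, beside 5.28%. TATAAA stood in those of Ctss, Hcls1, Laptm5 and Ptprc, beside 15.7%, and the C/EBP letters TTGCGCAA in 0 of the 26, beside 0.207%. None of these motifs is contained in another, and a match describes the letters of this window alone.

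Receptors for antibody and the adaptors that pass on their signal formed a group of 6 loci, of which 2 rose, Fcgr1 and Fcer1g. Fcgr1 (chr3:96282909-96293969), the high-affinity receptor for IgG, rose from 7.57 ± 1.17 to 15.3 ± 3.73 CPM (SD, n = 4), a log2 fold change of 1.02 ± 0.21 (adjusted p = 0.0073). Fcer1g (chr1:171229572-171234349) encodes the signalling chain that Fc receptors share, and mast cells and platelets carry it too. Its libraries read 13.8, 15.7, 13.9 and 11.1 CPM in wild type and 23.8, 22.8, 18.3 and 18.6 CPM in YAP5SA, with all YAP5SA values above all wild type values. The log2 fold change was 0.62 ± 0.15 (adjusted p = 0.016). Tyrobp (chr7:30413788-30417579), the adaptor DAP12 with which Trem2 signals, was the member with the highest level per length in wild type, at 48.0 FPKM. It read 19.9, 19.4, 18.3 and 12.9 CPM in wild type and 25.03, 27.9, 20.9 and 20.9 CPM in YAP5SA libraries. The lowest YAP5SA libraries, 3 and 4, were just above the highest wild type library. At a log2 fold change of 0.43 ± 0.16 Tyrobp was not called (adjusted p = 0.090), but it was with the replicate block (adjusted p = 0.035). Trem2 (chr17:48346401-48352273), a receptor for lipids and cell debris, read 10.2, 10.1, 9.45 and 5.84 CPM in wild type and 15.1, 14.8, 9.85 and 9.39 CPM in YAP5SA libraries. Its groups overlapped, since YAP5SA libraries 3 and 4 lay inside the wild type range. It was called neither without the block (log2 fold change 0.46 ± 0.24, adjusted p = 0.21) nor with it (adjusted p = 0.093).

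The low-affinity IgG receptors were less even. Fcgr3 (chr1:171051169-171059403), the activating receptor, read 14.8, 19.6, 16.3 and 10.6 CPM in wild type and 28.5, 29.6, 17.7 and 20.9 CPM in YAP5SA libraries. YAP5SA library 3 lay below wild type library 2, so the groups overlapped. The log2 fold change of 0.66 ± 0.21 missed the threshold (adjusted p = 0.056), and passed it with the replicate block (adjusted p = 0.020) and in DESeq2 (adjusted p = 0.026). Fcgr2b (chr1:170960007-170976071) encodes the inhibitory receptor of the family and is also expressed by some endothelium. It read 9.53, 4.56, 3.00 and 2.53 CPM in wild type and 24.4, 7.19, 9.44 and 2.82 CPM in YAP5SA libraries. Library 1 was the highest in both groups, and YAP5SA library 4 lay inside the wild type range. Its log2 fold change of 1.17 ± 0.61 (adjusted p = 0.22) was 0.41 without YAP5SA library 1, and 1.04 with the replicate block, where it was called (adjusted p = 0.024).

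The chains of C1q, the complement component that resident macrophages make and that tags dying cells and synapses, rose at all 3 loci. These genes lie side by side on chromosome 4. C1qa (chr4:136895916-136898844) read 30.8, 32.6, 30.1 and 25.9 CPM in the wild type libraries and 59.2, 51.4, 43.4 and 38.2 CPM in the YAP5SA libraries. C1qb (chr4:136880145-136886177) read 31.1, 30.6, 29.2 and 24.8 CPM and 53.4, 48.5, 41.4 and 38.6 CPM in the same order. C1qc (chr4:136889494-136892914) read 31.9, 36.8, 35.8 and 26.7 CPM and 60.7, 58.7, 46.7 and 37.7 CPM. In each gene wild type library 4 was the lowest of all 8 libraries and every YAP5SA library exceeded every wild type library. The log2 fold changes were 0.69 ± 0.13 for C1qa (adjusted p = 0.0054), 0.65 ± 0.12 for C1qb (adjusted p = 0.0035) and 0.63 ± 0.16 for C1qc (adjusted p = 0.017). C1q protein holds equal numbers of the 3 chains, and the transcripts were near that balance in every library. Of the summed FPKM of the 3 genes, C1qa made up 31.0% to 33.7%, C1qb 30.8% to 33.9% and C1qc 33.2% to 38.1% over the 8 libraries.

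Scavenger, endocytic and pattern receptors take up debris and ligands, and 2 of their 4 tested loci rose. Mrc1 (chr2:14229414-14332023), the mannose receptor, stood at 123, 133, 125 and 94.9 CPM in the wild type libraries and at 277, 234, 228 and 196 CPM in the YAP5SA libraries. Lyve1 (chr7:110850604-110863038), a hyaluronan receptor of perivascular macrophages and of lymphatic vessels, stood at 57.2, 55.1, 59.5 and 36.2 CPM and 128, 108, 106 and 78.9 CPM. In both genes the groups were well apart, and wild type library 4 and YAP5SA library 4 were the lowest of their groups. The log2 fold change was 0.98 ± 0.12 for Mrc1 (adjusted p = 0.00042) and 1.01 ± 0.17 for Lyve1 (adjusted p = 0.0022). Stab1 (chr14:31130997-31168641), the scavenger receptor stabilin-1 of macrophages and sinusoidal endothelium, read 153, 149, 206 and 113 CPM in wild type and 255, 184, 232 and 203 CPM in YAP5SA libraries. Wild type library 3 exceeded 2 of the YAP5SA libraries, so the groups overlapped. It missed the threshold (log2 fold change 0.49 ± 0.16, adjusted p = 0.054), and passed it with the replicate block (adjusted p = 0.025), in DESeq2 (adjusted p = 0.012) and in limma-voom (adjusted p = 0.048). Cd14, the coreceptor for bacterial lipopolysaccharide, read 6.67, 10.9, 9.15 and 8.37 CPM in wild type and 31.4, 26.4, 11.6 and 9.26 CPM in YAP5SA libraries. Libraries 1 and 2 of YAP5SA stood high and library 4 lay inside the wild type range. Cd14 was not called at a log2 fold change of 1.16 ± 0.37 (adjusted p = 0.052), and was called in DESeq2 (adjusted p = 0.014) and without YAP5SA library 3 (adjusted p = 0.043) or 4 (adjusted p = 0.017).

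The remaining members of this group were near the limit of detection. Cd163 (chr6:124304651-124330527), the receptor for hemoglobin bound to haptoglobin, had 9, 3, 3 and 0 fragments in the wild type libraries and 13, 9, 8 and 4 in the YAP5SA libraries. The 0 of wild type library 4 allows a level of up to 0.474 CPM, which 3 fragments would give. Timd4 (chr11:46810799-46844333), a phosphatidylserine receptor for dying cells, had 5, 7, 5 and 7 fragments in wild type and 10, 14, 28 and 8 in YAP5SA libraries. In CPM it read 0.794, 1.03, 0.750 and 1.11 in wild type and 1.20, 1.93, 3.78 and 1.07 in YAP5SA, where library 3 was the highest and library 4 lay inside the wild type range. Both failed the filter on low counts, and with a looser filter or none both were tested and neither was called.

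**Figure D2:**
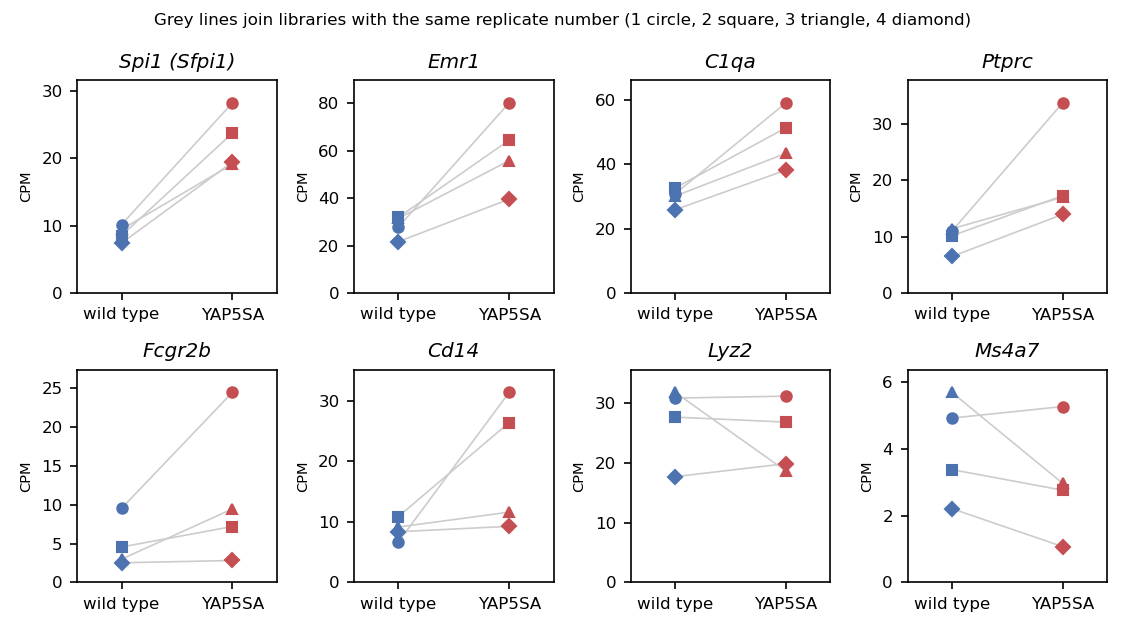
Levels of selected macrophage loci in CPM, wild type at left and YAP5SA at right of each panel, with 1 symbol per replicate number and grey lines that join libraries of the same number. Each vertical axis starts at 0, and the circle at right, YAP5SA library 1, is the highest of its group in 30 of the 35 loci.

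Among surface and cytoskeletal proteins of leukocytes, 6 of 9 loci rose. Cx3cr1 (chr9:120048693-120068282), the fractalkine receptor of young tissue macrophages, read 51.5, 55.4, 58.8 and 45.0 CPM in wild type and 120.4, 98.1, 97.1 and 89.7 CPM in YAP5SA libraries. Every YAP5SA library exceeded every wild type library by a wide margin, and the log2 fold change of 0.94 ± 0.10 had the smallest adjusted p of the members (0.00026). Emr1 (chr17:57358686-57483529) encodes the adhesion receptor F4/80, the classical surface marker of mouse macrophages. It read 27.8, 31.9, 31.5 and 21.6 CPM in wild type and 80.3, 64.5, 55.9 and 39.6 CPM in YAP5SA libraries. The YAP5SA libraries spread widely but all lay above the wild type libraries, with a log2 fold change of 1.09 ± 0.20 (adjusted p = 0.0039). Ptprc (chr1:138062861-138175305), the phosphatase CD45 of all leukocytes, read 10.96, 10.1, 11.4 and 6.47 CPM in wild type and 33.8, 17.3, 17.0 and 14.0 CPM in YAP5SA libraries. YAP5SA library 1 stood far above the other 3, which were close to each other and above all wild type libraries. The log2 fold change was 1.07 ± 0.29 (adjusted p = 0.026). It was not called in limma-voom (adjusted p = 0.052) or without wild type library 2 (adjusted p = 0.061) or 4 (adjusted p = 0.066), and was called without YAP5SA library 1 (log2 fold change 0.73, adjusted p = 0.033).

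Hcls1 (chr16:36934983-36963214), an actin-binding protein of blood cells, rose from 15.6 ± 3.49 to 30.9 ± 5.45 CPM (SD, n = 4), a log2 fold change of 0.98 ± 0.18 (adjusted p = 0.0035). The joined locus of Aif1, which encodes the macrophage protein IBA1, and its neighbour Lst1 (chr17:35170137-35188440) rose from 14.2 ± 1.79 to 24.3 ± 4.22 CPM (SD, n = 4), a log2 fold change of 0.77 ± 0.15 (adjusted p = 0.0060). Cd53 (chr3:106758861-106790149), a tetraspanin of leukocytes, read 9.06, 8.53, 7.35 and 6.32 CPM in wild type and 22.9, 14.8, 11.7 and 8.72 CPM in YAP5SA libraries. Its YAP5SA library 4 lay below wild type library 1. The call of Cd53 was marginal (log2 fold change 0.90 ± 0.28, adjusted p = 0.049) and was lost in limma-voom, in both fits to FPKM, with upper-quartile scaling and without any 1 library other than YAP5SA library 4.

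The integrin chains Itgam and Itgb2 pair to form the complement receptor Mac-1. Itgam (chr7:128062640-128118491) read 6.99, 5.44, 7.20 and 4.11 CPM in wild type and 19.3, 7.88, 8.23 and 9.66 CPM in YAP5SA libraries. Itgb2 (chr10:77530348-77565674) read 8.42, 6.32, 6.90 and 2.68 CPM and 20.00, 9.12, 8.10 and 10.9 CPM. In both genes YAP5SA library 1 stood far above the rest of its group, and all YAP5SA libraries of Itgam but not of Itgb2 exceeded the wild type libraries. Neither was called (log2 fold changes 0.93 ± 0.32 and 0.99 ± 0.37, adjusted p = 0.072 and 0.092), and both were with the replicate block (adjusted p = 0.039 and 0.045). Ms4a7 (chr19:11321406-11336116), a tetraspan membrane protein of tissue macrophages, was lower on average in YAP5SA, short of the threshold. It read 4.93, 3.38, 5.70 and 2.21 CPM in wild type and 5.27, 2.76, 2.97 and 1.07 CPM in YAP5SA libraries. The groups overlapped, with a log2 fold change of -0.41 ± 0.44 and an adjusted p of 0.58.

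Lysosomal and antimicrobial proteins digest what macrophages take up, and 3 of 5 such loci rose. Ctss (chr3:95526786-95556403), the protease cathepsin S, read 17.2, 18.96, 15.1 and 13.9 CPM in wild type and 46.7, 36.1, 28.3 and 25.6 CPM in YAP5SA libraries. All YAP5SA libraries lay above all wild type libraries, with a log2 fold change of 1.07 ± 0.19 (adjusted p = 0.0033). Laptm5 (chr4:130913334-130936148), a lysosomal membrane protein of blood cells, rose from 37.6 ± 6.87 to 61.4 ± 7.84 CPM (SD, n = 4), a log2 fold change of 0.71 ± 0.13 (adjusted p = 0.0039). Cybb (chrX:9435252-9469324), the catalytic subunit of the phagocyte NADPH oxidase, read 11.3, 12.1, 11.4 and 7.90 CPM in wild type and 23.8, 17.1, 13.49 and 14.4 CPM in YAP5SA libraries. The groups lay apart, but the log2 fold change of 0.69 ± 0.21 was near the threshold (adjusted p = 0.045). The call was lost in limma-voom, in both fits to FPKM, in libraries thinned to 1 depth and without any 1 library other than YAP5SA library 3 or 4.

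The other members of the digestive group were not called. The joined locus of Cd68, a lysosomal membrane protein of macrophages, and of Eif4a1, a helicase that all cells use for translation (chr11:69664217-69672728), read 98.2, 87.9, 80.2 and 100.1 CPM in wild type and 119, 113, 93.4 and 100.2 CPM in YAP5SA libraries. The groups overlapped and the log2 fold change was 0.22 ± 0.09 (adjusted p = 0.13), while the fits to FPKM called it (adjusted p = 0.030 in each). What Cd68 alone did cannot be read from this locus. Lyz2 (chr10:117277541-117282272), the lysozyme of macrophages and neutrophils, read 30.8, 27.6, 31.8 and 17.7 CPM in wild type and 31.1, 26.8, 18.6 and 19.9 CPM in YAP5SA libraries. Here all YAP5SA libraries lay within the wild type range, and the log2 fold change was -0.16 ± 0.21 (adjusted p = 0.67). A near copy, Lyz1, lies beside Lyz2, so the split of fragments between them is uncertain.

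Of the secreted factors and the enzyme of lipid mediators, 2 of 3 loci rose. F13a1 (chr13:36857695-37050244), the clotting factor XIII subunit that cross-links matrix, read 108, 111, 100.2 and 70.7 CPM in wild type and 196, 169, 156 and 115 CPM in YAP5SA libraries. Every YAP5SA library exceeded every wild type library, and the log2 fold change was 0.71 ± 0.17 (adjusted p = 0.014). Pf4 (chr5:90772435-90773383), a chemokine of platelets and of embryonic macrophages, read 15.1, 15.7, 15.1 and 10.6 CPM in wild type and 23.1, 17.3, 19.6 and 21.2 CPM in YAP5SA libraries. The groups lay apart, with a log2 fold change of 0.52 ± 0.16 (adjusted p = 0.040). This call was lost after thinning and without any 1 library other than YAP5SA library 2. Hpgds (chr6:65117293-65144735), the prostaglandin D synthase of macrophages and mast cells, read 17.2, 17.6, 13.49 and 11.8 CPM in wild type and 41.9, 19.8, 22.4 and 17.7 CPM in YAP5SA libraries. YAP5SA library 1 was far above the others, of which library 4 was barely above the highest wild type library. Hpgds was not called (log2 fold change 0.76 ± 0.27, adjusted p = 0.075), and was with the replicate block (adjusted p = 0.026) and in DESeq2 (adjusted p = 0.037).

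**Figure D3:**
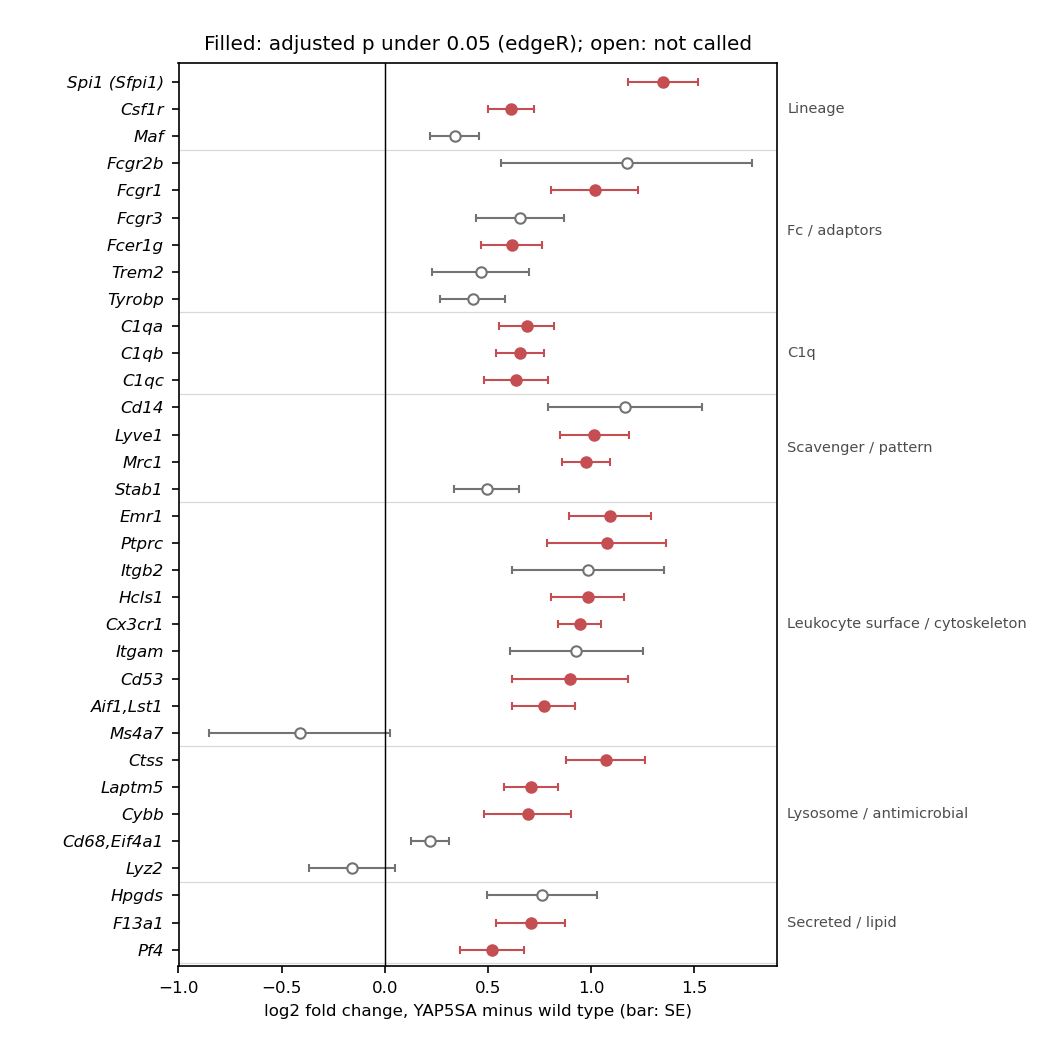
Log2 fold change of each tested macrophage locus, YAP5SA minus wild type, with its standard error as a bar, filled where the adjusted p in edgeR is under 0.05 and open where it is not, ordered by role. The 20 filled points all lie to the right of 0, and Ms4a7 and Lyz2 are the 2 points to its left.

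To see which members departed from the summed macrophage level, the fit was repeated with each library scaled to the summed fragments of the 35 loci. A value of 0 then means a change equal to that of their total. In wild type the most abundant loci of this total were Stab1, Mrc1, Maf, F13a1 and the joined locus of Cd68 and Eif4a1. Some of these are also expressed by other cells, and no such fit left out all members of that kind. On this scale 2.04% of all loci were called higher and 83.8% lower, since most loci did not share the rise of the macrophage sum. With so many loci called, an adjusted p here is close to the unadjusted p of the same test. These calls are thus hardly corrected for the number of members tested. Of the members, 2 were higher and 3 lower. Spi1 exceeded the sum by 0.66 ± 0.23 on the log2 scale (adjusted p = 0.0054, unadjusted 0.0038) and Emr1 by 0.39 ± 0.19 (adjusted p = 0.046, unadjusted 0.039). Lyz2 lay below it with -0.84 ± 0.20 (adjusted p = 0.00012), Ms4a7 with -1.12 ± 0.34 (adjusted p = 0.0019) and the joined locus of Cd68 and Eif4a1 with -0.49 ± 0.19 (adjusted p = 0.012). Spi1, Lyz2 and Ms4a7 were called under every alternative run for this scale. Emr1 was not called in 8 of 11 such alternatives (adjusted p = 0.061 to 0.13), among them the total without the most abundant locus or the joined loci and 6 of the 8 fits that leave out a library. The 3 C1q chains followed the sum closely, with -0.01, -0.03 and -0.05, as did Csf1r with -0.06 and F13a1 with 0.02. With the replicate block the higher loci numbered 6, beside 2.28% of all loci, and were Spi1, Emr1, Mrc1 (0.30, adjusted p = 0.015), Ctss (0.36, adjusted p = 0.024), Lyve1 (0.34, adjusted p = 0.0095) and Cx3cr1 (0.26, adjusted p = 0.045). The lower loci then numbered 4, beside 86.9%, with Maf added (-0.32, adjusted p = 0.0094).

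A second list of 87 macrophage genes that are not among the 35 gave 80 tested loci. Of these 41 rose and 2 fell, beside 9.06% and 9.85% of all tested loci, and the median log2 fold change of the list was 0.74. Its summed level ran from 1564 to 1899 CPM in wild type and from 2201 to 2996 CPM in YAP5SA libraries. The 4 with the smallest p all rose. Irf5, a transcription factor of inflammatory signalling, went from 14.9 ± 0.936 to 30.9 ± 1.67 CPM (SD, n = 4; log2 fold change 1.05 ± 0.10, adjusted p = 9.9e-05). Msr1, the class A scavenger receptor, went from 7.67 ± 1.56 to 41.1 ± 16.2 CPM (2.42 ± 0.28, adjusted p = 0.00036), a larger log2 change than that of any of the 33 tested loci. Arhgdib, a regulator of small GTPases in blood cells, changed by 0.53 ± 0.08 (adjusted p = 0.0011) and the Src-family kinase Lyn by 0.71 ± 0.10 (adjusted p = 0.0012). Cyba, the partner of Cybb in the NADPH oxidase, had the highest level per length of this list and was not called (72.2 ± 5.64 FPKM in wild type, 68.5 ± 4.29 in YAP5SA, adjusted p = 0.58). The 2 that fell were Tmem119 (-0.20 ± 0.06, adjusted p = 0.043), which microglia and bone-forming cells express, and the lysosomal thiol reductase Ifi30 (-0.20 ± 0.06, adjusted p = 0.045).

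Ligands that act on macrophages were read in the same tissue. Of 14 such genes 11 were tested, 8 rose and 0 fell, beside 9.06% and 9.85% of all tested loci. The median log2 fold change was 0.82, and the summed levels were 548 to 629 CPM in wild type and 754 to 842 CPM in YAP5SA libraries. Csf1, a ligand of the receptor that Csf1r encodes, read 57.5, 58.8, 62.2 and 51.8 CPM in wild type and 141, 134, 125 and 114 CPM in YAP5SA libraries. Its groups lay far apart, with a log2 fold change of 1.16 ± 0.08 (adjusted p = 1.9e-05). The complement gene C3 changed by 2.29 ± 0.34 (adjusted p = 0.0012), and the monocyte chemokines Ccl7 and Ccl12 by 2.81 ± 0.48 (adjusted p = 0.0028) and 2.33 ± 0.46 (adjusted p = 0.0059). Cxcl12, the highest of the list per length, changed by 0.21 ± 0.05 (adjusted p = 0.020), and Il34, the other ligand of the receptor, was not called at 0.82 ± 0.46 (adjusted p = 0.26).

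Several members are also made by other cells, so markers of those cells were read beside them. The counts in these lists stand beside 9.06% of all tested loci called higher and 9.85% called lower. Counts near those shares are not read as results about the cells. For 1 alternative sum, 7 members with a known source in endothelium, platelets or mast cells were left out (Lyve1, Stab1, Mrc1, Maf, Pf4, Hpgds and Fcer1g). The summed macrophage level then differed by 0.69 on the log2 scale, against 0.68 with them. Other members that such cells can express, among them Fcgr2b, were kept. F13a1 and the joined locus of Cd68 and Eif4a1, both among the most abundant members, were kept too. This sum is thus not free of other cells. The part of other cells in the values of single members was not tested. Of 14 neutrophil and monocyte markers at 13 loci 9 were tested, 0 rose and Prtn3, a granule protease, fell (-0.86 ± 0.24, adjusted p = 0.029). The list had a median of -1.10 and summed levels of 17.4 to 91.4 CPM in wild type and 12.9 to 42.9 CPM in YAP5SA libraries, with no locus at 0 in all libraries. Mpo, Camp and S100a9, the last the highest of the list per length, were not called (log2 fold changes -1.16 ± 0.48, -1.37 ± 0.72 and -1.24 ± 0.69). Lyz2, Itgam and Itgb2 are members that neutrophils share. Of 13 lymphocyte markers 3 were tested, 0 rose and 1 fell, and Il7r and Cd79b were not called. Their sums ran from 17.2 to 34.95 CPM in wild type and from 13.55 to 19.3 CPM in YAP5SA libraries. The T cell gene Cd3d and the natural killer cell gene Ncr1 had 0 fragments in all 8 libraries, which allows up to 0.359 to 0.477 CPM in a library.

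Mast cell and basophil markers gave 6 tested loci of 10, of which 2 rose and 0 fell. These were Tpsab1, a mast cell tryptase (2.50 ± 0.54, adjusted p = 0.0090), and a locus that joins Ms4a2, a chain of the IgE receptor, to Ms4a6d (1.89 ± 0.39, adjusted p = 0.0073). What Ms4a2 alone did cannot be read from the joined locus, which also enters the sum of the list. Cpa3, the highest of the list per length, read 23.8 ± 7.72 and 25.5 ± 8.44 CPM (SD, n = 4; adjusted p = 0.87), and Hdc and Tpsb2 were not called. The list summed to 25.7 to 70.8 CPM in wild type and 48.0 to 106 CPM in YAP5SA libraries, beside which Hpgds and Fcer1g stand. For Pf4, 4 of 12 megakaryocyte and platelet markers were tested, 0 rose and the integrin gene Itgb3 fell (-0.995 ± 0.16, adjusted p = 0.0017). Itga2b, the platelet integrin chain, read 7.37 ± 1.35 and 8.03 ± 1.67 CPM (SD, n = 4; adjusted p = 0.76), and Gp1ba and the joined locus of Gp1bb and Sept5 were not called. The platelet sums ran from 119 to 140.1 CPM in wild type and from 98.6 to 113 CPM in YAP5SA libraries. Itga2b is a small part of these sums, which also hold Itgb3 and the joined locus of Gp1bb and Sept5. In which cells the sums differed was not tested.

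For Lyve1, Stab1, Mrc1 and Maf, endothelium is the other known source. Of 7 tested lymphatic loci 2 rose, Pdpn (0.92 ± 0.17, adjusted p = 0.0041) and Nr2f2 (0.40 ± 0.08, adjusted p = 0.0046). Whether Pdpn and Nr2f2 rose in lymphatic or in other cells was not tested. Flt4, the receptor of lymphatic growth, fell (-0.52 ± 0.15, adjusted p = 0.032), while Sema3d was not called. Prox1, the regulator of lymphatic identity, read 40.8, 24.99, 19.3 and 15.0 CPM in wild type and 31.1, 23.1, 22.4 and 24.1 CPM in YAP5SA libraries. These ranges overlapped, with an adjusted p of 0.98. The lymphatic list summed to 417 to 522 CPM in wild type and 556 to 581 CPM in YAP5SA libraries, with a median log2 fold change of 0.25. Of 14 blood endothelial loci 2 rose, Kdr (0.62 ± 0.07, adjusted p = 0.00032) and Ptprb (0.61 ± 0.11, adjusted p = 0.0042), 0 fell and the median was 0.02. Their sums were 909.8 to 1084 CPM in wild type and 1059 to 1196 CPM in YAP5SA libraries, and Egfl7, the highest per length, was not called (adjusted p = 0.91), nor were Eng and Flt1.

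Osteoclasts derive from the same lineage. Of 6 tested osteoclast loci of 9, 2 rose, both annotated to the calcitonin receptor gene Calcr, and Ctsk fell (-1.22 ± 0.25, adjusted p = 0.0072), while Acp5, the highest per length, was not called (adjusted p = 0.78), nor was Mmp9. The list summed to 49.1 to 63.6 CPM in wild type and 67.1 to 111 CPM in YAP5SA libraries. Of 11 tested erythroid loci 0 rose and 2 fell. Hbb-y, an embryonic globin gene, was among the latter (-0.26 ± 0.06, adjusted p = 0.016), and the joined adult beta-globin locus and Alas2 were not called. The erythroid list had sums of 283 to 345 CPM in wild type and 231 to 281 CPM in YAP5SA libraries.

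**Figure D4:**
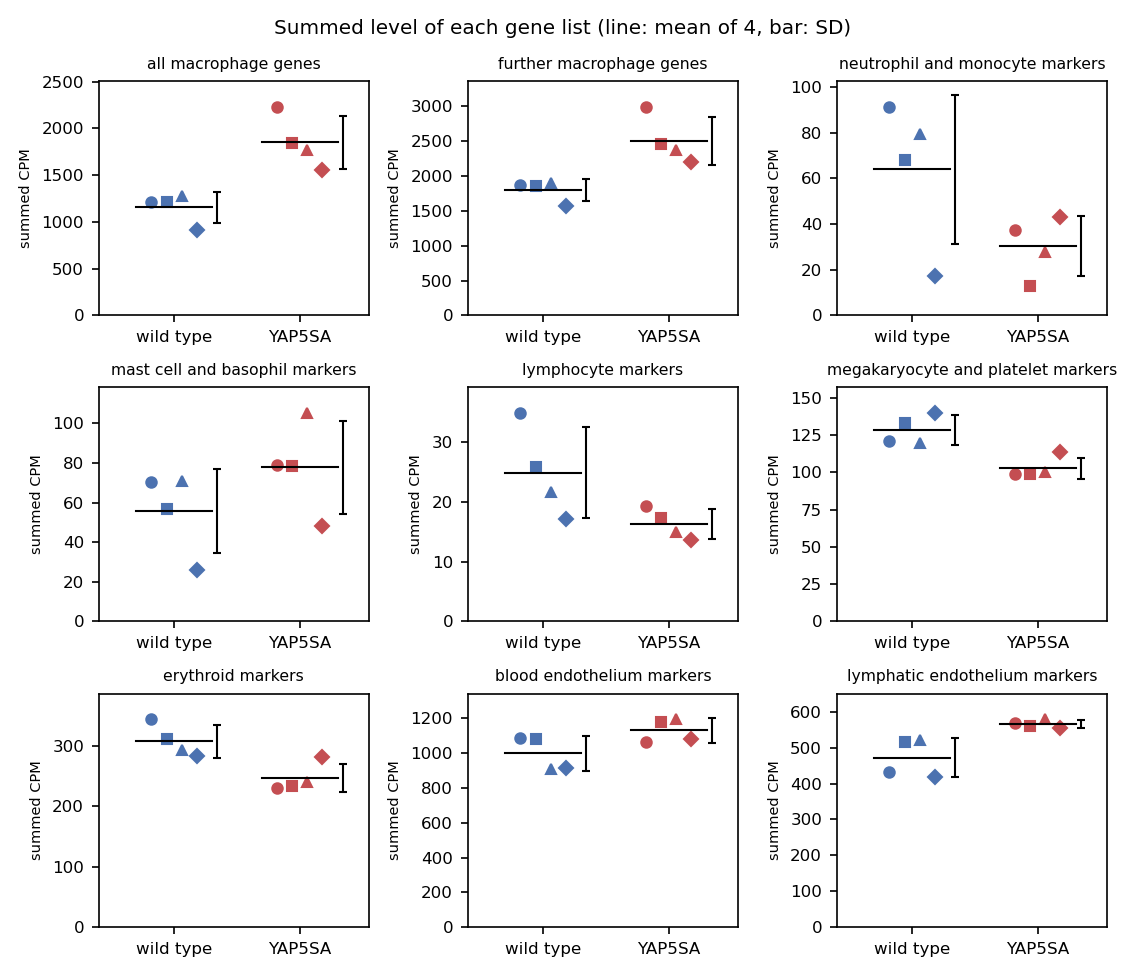
Summed CPM of the macrophage, further macrophage, neutrophil, mast cell, lymphocyte, platelet, erythroid, blood endothelial and lymphatic lists in the 4 wild type and 4 YAP5SA libraries. Each point is a library, with the mean as a line and the SD as a bar, and each axis starts at 0. The macrophage sums of 914 to 1275 and 1556 to 2232 CPM do not overlap between the groups. Nor do those of the further macrophage and lymphatic lists, which are also higher in YAP5SA, and of the platelet and erythroid lists, which are lower. A sum follows the most abundant loci of its list, and which cells hold them was not tested. The sums of the neutrophil, mast cell, lymphocyte and blood endothelial lists overlap.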

How the data were processed

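Messenger RNA was measured in 4 wild type and 4 YAP5SA stomach libraries at E13.5. Per the labels' protocols, stomachs were flash frozen, RNA was taken up in Trizol and libraries were made with a TruSeq kit. The submitters' processing notes list TopHat2 2.0.9, Cufflinks 2.2.1 and Cuffdiff with build mm10. Whether counting used strand is not stated there.

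The authors' table holds estimated counts of fragments per locus and library as deposited, named raw fragments per the file headers. Between 10.9% and 11.3% of them per library were not whole, and they were rounded here. The deposited table also gives FPKM per library, as scaled by the authors. It numbers replicates 0 to 3, taken here as the labels' 1 to 4. Deposited starts count from 0 (after adding 1, 7725 equal a GENCODE M21 transcript start, against 701 as given), so 1 was added. Loci without a gene name (3582, with 1.85% to 1.97% of the fragments) were left out, and 3 values with a failed status were kept.

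Of the 23165 named loci, 14574 passed edgeR's default filterByExpr and entered its robust quasi-likelihood test with TMM factors and genotype as the single term (edgeR 4.0.16, R 4.3.3). A locus was called where the two-sided p, adjusted over these loci by Benjamini-Hochberg, was under 0.05. Positive log2 fold changes mean higher in YAP5SA. Their standard errors were derived from the test, as the absolute log2 fold change divided by the square root of its F statistic. The step was checked on simulated data. No library pair of a group agreed within counting noise. The labels name no separate embryos, so the p-values cover spread among libraries that may be technical. Deviations from the group means correlated at 0.141 to 0.220 between libraries of the same replicate number, and all 8 correlated best with their own number. For the replicate block the numbers were therefore taken to pair the libraries, on the evidence of the data, since the labels do not say what they mark. The main fit does not use this pairing.

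The members and the 10 other gene lists (194 genes) were chosen with earlier results of these data known. Values in every library are given for 19 members set by name, for members that gain or lose a call and for any below 0, and other members by mean and SD. Of other lists the 4 loci with the smallest p and the highest per length are named, and Csf1, Prox1, Itga2b and Il34 besides. Alternatives were DESeq2 1.42.0, limma-voom and limma 3.58.1 on log2(FPKM + 0.1) and log2(FPKM + 1), other scalings and filters, thinning, the replicate block and leaving out each library. Spi1 was matched and promoters were taken from RefSeq, and exon overlaps from GENCODE M21. A planned search of protein sequences was not run, and a few genes of the other lists are not reported here.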

Additional observations from a re-analysis of the deposited data

Results flagged for a closer look

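In 4 of 72 groups of 4 libraries (35 loci and their sum in each genotype), 1 library stood apart by more than Dixon's 95% critical value of the group's range. Chance alone flags about 1 in 20 groups. Ptprc in YAP5SA library 1 was 33.8 CPM, above 14.0, 17.0 and 17.3 CPM in the others. Itgam in YAP5SA library 1 was 19.3 CPM, above 7.88, 8.23 and 9.66 CPM. Trem2 in wild type library 4 was 5.84 CPM, below 9.45, 10.1 and 10.2 CPM. Pf4 in wild type library 4 was 10.6 CPM, below 15.1, 15.1 and 15.7 CPM.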

How the results depend on the processing

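With the replicate block, 28 macrophage loci were called higher in place of 20, and it ended none of the 20 calls. Other alternatives called 26 (DESeq2, beside 9.93% of all loci), 18 (limma-voom, 8.63%, and thinning, 8.85%), 19 (FPKM fits, 8.87% and 8.93%, and upper-quartile factors, 8.57%) and 16 to 20 (leaving out 1 library, 6.84% to 8.77%). In all of these 0 were called lower. The calls of 16 of the 20 loci held in every alternative that tested them, and Cd53, Cybb, Pf4 and Ptprc lost theirs at least once. Of 658 values of single loci under alternatives, 601 kept their direction and side of the threshold, 25 came past it and 32 fell short, and none changed direction.

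Relative to the members' total, the count of higher loci was 2. It was 1 with the total taken without the most abundant locus, 1 without the joined loci and 6 with the replicate block. Leaving out 1 library gave 1 (wild type 2 or 3, YAP5SA 1 or 2) to 4 (wild type 4 or YAP5SA 4). The summed level differed by 0.68 on the log2 scale, and by 0.58 to 0.75 without 1 library. The cause of these shifts was not tested. Alternatives for the total other than its most abundant locus, and the block and left-out libraries for the sum and the relative counts, were chosen after seeing the data. Depth limits Cd163 and Timd4, which had 15 and 24 fragments in all wild type libraries together. Joined loci limit Cd68 and Aif1.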
